A study of Mus musculus with 6 samples.

Results

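The genes described here are 10 oncofetal and imprinted genes of liver tumors: Afp, Gpc3, H19, Igf2, Dlk1, Meg3, Peg3, Igf2bp1, Igf2bp3, and Lin28b. They were taken by exact symbol from the 26167 genes of the deposited tables. RNA-seq was performed on Hepa1-6 tumors grown under the skin of female C57BL/6J mice, 6 to 8 weeks old. Hepa1-6 is a single mouse hepatoma cell line. The 3 control tumors (numbers 1, 3, and 4) came from control mice. The 3 Sora-treated tumors (numbers 2, 3, and 4) came from mice that had sorafenib (Sora), an inhibitor of several kinases, injected into the peritoneum at 10 mg/kg on day 9 and again on days 11, 13, and 15. Each tumor gave 1 library, and the tumors were sequenced whole, so every value mixes the hepatoma cells with the host's own cells. The shallowest tumor had 31073830 counted reads and the deepest 36205814. For Sora-treated tumor 4, counts were recovered from the deposited FPKM, and every fit over 6 tumors includes them.

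Oncofetal genes are active in the fetal liver, are switched off around birth, and return in many hepatocellular carcinomas. Afp and Gpc3 encode a secreted and a cell surface protein of this kind and serve as tumor markers in patients. H19, Igf2, Dlk1, Meg3, and Peg3 are imprinted, which means that one parental copy is silent. In the mouse, H19 and Meg3 are noncoding RNAs made from the maternal copy, and Igf2, Dlk1, and Peg3 are made from the paternal copy. Igf2bp1, Igf2bp3, and Lin28b encode RNA-binding proteins that belong to 1 known circuit: LIN28B blocks the maturation of let-7 microRNAs, and let-7 represses the messenger RNAs of Lin28b, of the Igf2bp genes, and of Hmga2.

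The let-7 circuit is shown in sequence because the RNA-binding members are described against it. The mature let-7 RNAs share a seed, bases 2 to 8, which is in capitals in these mouse sequences of RefSeq (GRCm38.p6), where U stands for the RNA base.
mmu-let-7a-5p: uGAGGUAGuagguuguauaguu
mmu-let-7d-5p: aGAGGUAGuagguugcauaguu
mmu-let-7i-5p: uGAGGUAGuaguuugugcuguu
mmu-miR-98-5p: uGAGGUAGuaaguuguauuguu
All 9 mature sequences of the family in the RefSeq table carried the seed GAGGUAG, and the 4 shown differ outside it. The reverse complement of the seed, CTACCTC, was searched on the transcript strand of the longest annotated 3′ untranslated region of each gene (GENCODE annotation of GRCm38). It was found 4 times in Igf2bp1, 4 times in Lin28b, 1 time in Igf2bp3, and 1 time in Peg3, and was not found in Afp, Gpc3, Igf2, or Dlk1. Among all 21020 genes with such a region, 1897 (9.025%) had at least 1 match and 12 had at least 4. The first match in the untranslated region of Igf2bp1, Igf2bp3, Lin28b, Igf2bp2, Hmga1, and Hmga2 is printed here in its transcript direction, with the match in capitals.
Igf2bp1, chr11:95961768-95961796, minus strand: tgcgaagtaaaCTACCTCaaggtgtgaag
Igf2bp3, chr6:49086777-49086805, minus strand: tttttactcaaCTACCTCaggtattcagt
Lin28b, chr10:45381012-45381040, minus strand: gggcgggaagtCTACCTCatgcaagcaca
Igf2bp2, chr16:22059463-22059491, minus strand: acaaataaaagCTACCTCaggtgtttttt
Hmga1, chr17:27563281-27563309, plus strand: ctgttcacaaaCTACCTCtggacggttgt
Hmga2, chr10:120364214-120364242, minus strand: acattcaatttCTACCTCagcatcagttg
Igf2bp2 and Hmga1 had 1 match each, and Hmga2 had 4. A match describes these letters and is not evidence of binding, and the mature let-7 RNAs themselves were not analysed here.

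All 10 genes were detected, at levels that spanned a 9297-fold range of mean FPKM, the deposited unit, in which reads are scaled by gene length and by the total of the tumor. Afp was the most abundant by far, at 421 ± 86.3 FPKM in control tumors (SD, n = 3) and 395 ± 11.4 FPKM in Sora-treated tumors, and ranked 149 among all genes. H19 (12.7 ± 3.7 FPKM in control tumors), Gpc3 (14.9 ± 2.79 FPKM), and Igf2bp1 (8.37 ± 0.639 FPKM) followed, and the ranges of these 3 genes over the 6 tumors overlapped. Igf2 (5.97 ± 1.19 FPKM), Igf2bp3 (4.44 ± 0.285 FPKM), Meg3 (2.01 ± 0.452 FPKM), and Peg3 (0.589 ± 0.0775 FPKM) came next in control tumors, and none of these overlapped its neighbor in the order. Dlk1 and Lin28b were lowest, with 7 to 41 and 10 to 33 reads per tumor, and their FPKM ranges overlapped each other. Counting error alone is large at such levels.

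**Figure D1:**
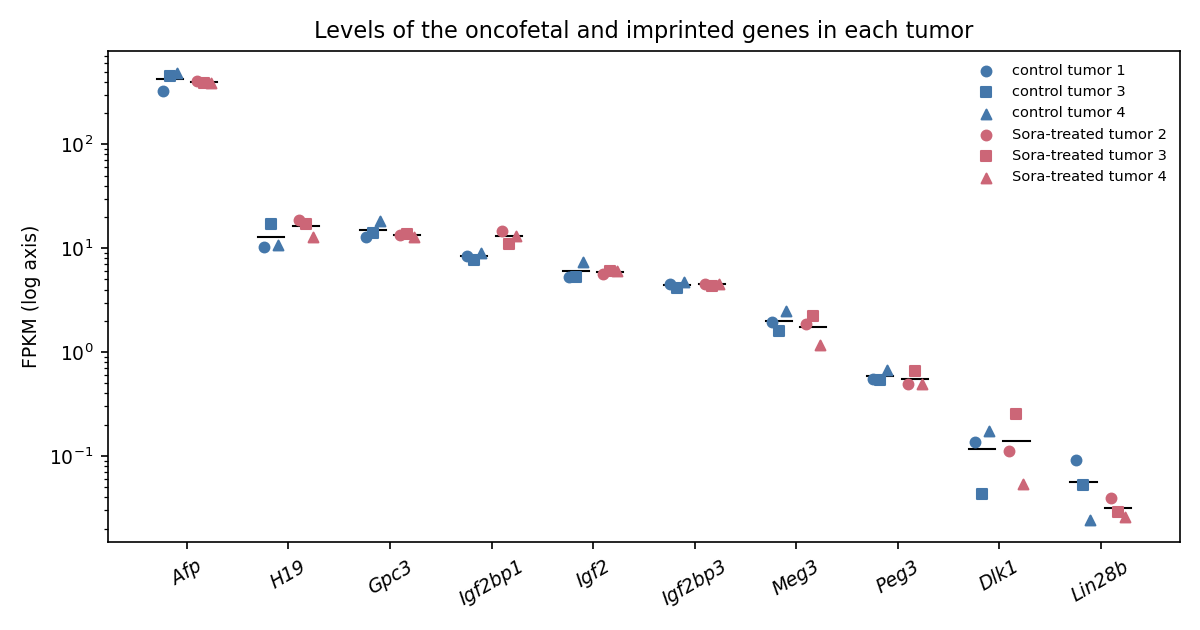
FPKM of the 10 genes in each tumor on a log axis, with control tumors in blue, Sora-treated tumors in red, symbols for the tumor number, and a black line at each group mean. Afp stands above all others at 323 to 483 FPKM, Dlk1 and Lin28b lie lowest, and the groups separate for Igf2bp1 alone.

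One question of the design is which genes differ between Sora-treated and control tumors. Among the 10 genes, Igf2bp1 was up-regulated and no gene was down-regulated (adjusted p under 0.05, edgeR quasi-likelihood test with Benjamini-Hochberg adjustment over 16513 genes). Over all genes tested, 1.94% were called higher and 1.34% lower, or 3.29% in either direction. At an unadjusted p under 0.05, edgeR gave 1 member higher and 0 lower, beside 8.53% and 8.69% of the 16513 genes (1409 and 1435 genes), and DESeq2 gave 1 and 0, beside 5.61% and 5.65% of the 25272 genes it tested without that filter (1418 and 1427 genes). Because the tumors were sequenced in bulk, fewer cells of a type and less RNA per cell cannot be told apart. The median log2 fold change (Sora-treated minus control) of the 10 genes was -0.05, with 4 above and 6 below 0, and the median over all genes tested was -0.00037. Fold changes of 8 of the 10 genes lay within 1.3-fold, the exceptions being Igf2bp1 and the scarce Lin28b. The groups did not overlap in CPM (counts scaled by library total and TMM factor) for Igf2bp1 and overlapped for the other 9 genes, against 22.2% of all genes tested without overlap. The labels do not say whether the tumors came from separate mice or how they were shared among cages or sequencing runs. The p-values rest on the spread of tumors within each group and treat the 6 tumors as independent.

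**Figure D2:**
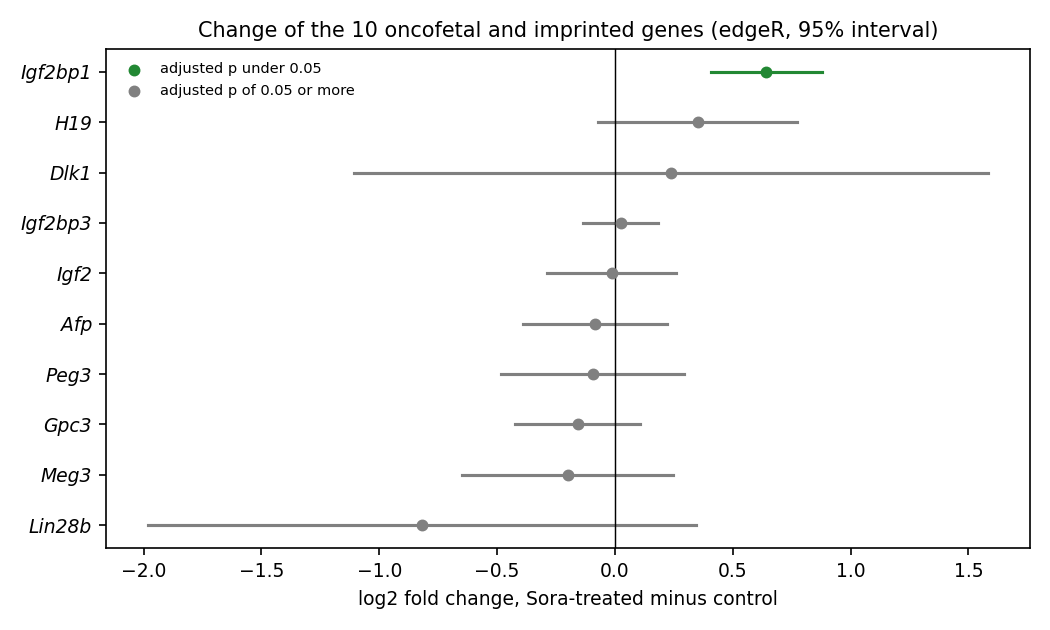
Log2 fold change of each gene, Sora-treated minus control, with its 95% interval from edgeR over 3 tumors per group. The interval of Igf2bp1 (0.41 to 0.88) lies wholly above 0, and those of the other 9 genes cross 0, with Dlk1 and Lin28b the widest.

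Igf2bp1 encodes a fetal RNA-binding protein that stabilizes Igf2, Myc, and other messenger RNAs. Its level was 8.42, 7.71, and 8.99 FPKM in control tumors 1, 3, and 4 and 14.8, 10.96, and 13.1 FPKM in Sora-treated tumors 2, 3, and 4. Every Sora-treated tumor was above every control tumor, with Sora-treated tumor 3 the nearest to the controls. In the fit over all genes, the log2 fold change was 0.64 ± 0.11 (SE), a fold of 1.56 with a 95% interval of 1.32 to 1.84 (edgeR adjusted p = 0.0163). The call was lost when control tumor 1 (edgeR adjusted p = 0.0505), Sora-treated tumor 2 (0.0519), or Sora-treated tumor 4 (0.0959) was left out, while the log2 fold change stayed between 0.55 and 0.76 whichever tumor was left out. DESeq2 gave an adjusted p of 1.57e-06 with all 6 tumors and 0.000802 on the 5 tumors with deposited counts. Over 17 alternative settings the adjusted p of edgeR, DESeq2, or limma ranged from 1.57e-06 to 0.198, and 10 settings kept the call.

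Igf2bp3, a close relative of Igf2bp1 that is also common in fetal tissue and in carcinomas, was measured at 4.49, 4.13, and 4.70 FPKM in control tumors and 4.57, 4.37, and 4.50 FPKM in Sora-treated tumors. The groups overlapped throughout and the 6 values lay close together, with a log2 fold change of 0.02 and a 95% interval of -0.14 to 0.18 (edgeR adjusted p = 0.904). Its spread within groups was smaller than that of most genes of like abundance, at percentile 16.5 of 4872 genes, whereas that of Igf2bp1 was at percentile 90.7. The ratio of Igf2bp3 to Igf2bp1, computed from FPKM with 0.1 added to each, was 0.539, 0.542, and 0.528 in control tumors and 0.314, 0.404, and 0.347 in Sora-treated tumors. All Sora-treated ratios were below all control ratios, a difference of -0.60 on the log2 scale (two-sided exact permutation test, p = 0.1, the smallest value that 3 against 3 tumors allow).

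Igf2bp2, the member of the family that stays active in adult tissue, was measured beside them, at 15.5, 18.4, and 18.1 FPKM in control tumors and 25.1, 19.8, and 26.5 FPKM in Sora-treated tumors. The groups did not overlap, but the difference did not pass the test, with a log2 fold change of 0.47 ± 0.12 (SE) and an edgeR adjusted p of 0.064. Without Sora-treated tumor 3 it passed (edgeR adjusted p = 0.00959), and DESeq2 called it with all 6 tumors (adjusted p = 0.00431). Of 17 alternative settings, 3 called it, with edgeR, DESeq2, or limma adjusted p from 0.00431 to 0.476.

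Lin28b, the inhibitor of let-7 maturation, was close to absent, with 33, 20, and 10 reads in control tumors and 14, 11, and 10 reads in Sora-treated tumors. The values overlapped, and control tumor 1 was the highest. The log2 fold change was -0.82 with a 95% interval of -1.98 to 0.34 (edgeR adjusted p = 0.478), so a large fall lies within the interval. Without control tumor 1 the log2 fold change was -0.30, and without control tumor 4 it was -1.19. Its relative Lin28a had 0 to 9 reads per tumor and did not reach the filter of 10 counts in at least 3 tumors.

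Hmga1 and Hmga2 encode chromatin proteins of the embryo, and Hmga2 is a classic let-7 target. Hmga1 was up-regulated, from 56.0, 55.4, and 59.8 FPKM in control tumors to 98.2, 70.2, and 105 FPKM in Sora-treated tumors (log2 fold change 0.69 ± 0.14 SE, edgeR adjusted p = 0.0243). Hmga2 was measured at 0.687, 0.880, and 0.962 FPKM in control tumors and 2.14, 1.05, and 1.78 FPKM in Sora-treated tumors. These groups did not overlap either, with Sora-treated tumor 3 again nearest to the controls, and the log2 fold change of 0.98 ± 0.27 (SE) did not pass the test (edgeR adjusted p = 0.0778). It passed without Sora-treated tumor 3 (edgeR adjusted p = 0.0117) and with DESeq2 on all 6 tumors (adjusted p = 0.00653), and 3 of 17 alternative settings called it, with edgeR, DESeq2, or limma adjusted p from 0.00653 to 0.693. Of the 14 tested genes in the list of the LIN28 and let-7 axis and IGF2BP partners, Hmga1 was called higher and none lower, with a median log2 fold change of -0.0053. In CPM the groups did not overlap for 4 genes on the higher side (Igf2bp2, Hmga1, Hmga2, and Arid3a) and for 2 on the lower side, Tut4 (log2 fold change -0.17) and Tut7 (-0.09), which encode enzymes that add uridines to RNA. By the same rule, 10.6% of all genes tested were higher without overlap and 11.6% were lower. Myc, an IGF2BP target and the most abundant of the list after Hmga1, had a log2 fold change of 0.13 (edgeR adjusted p = 0.453).

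**Figure D3:**
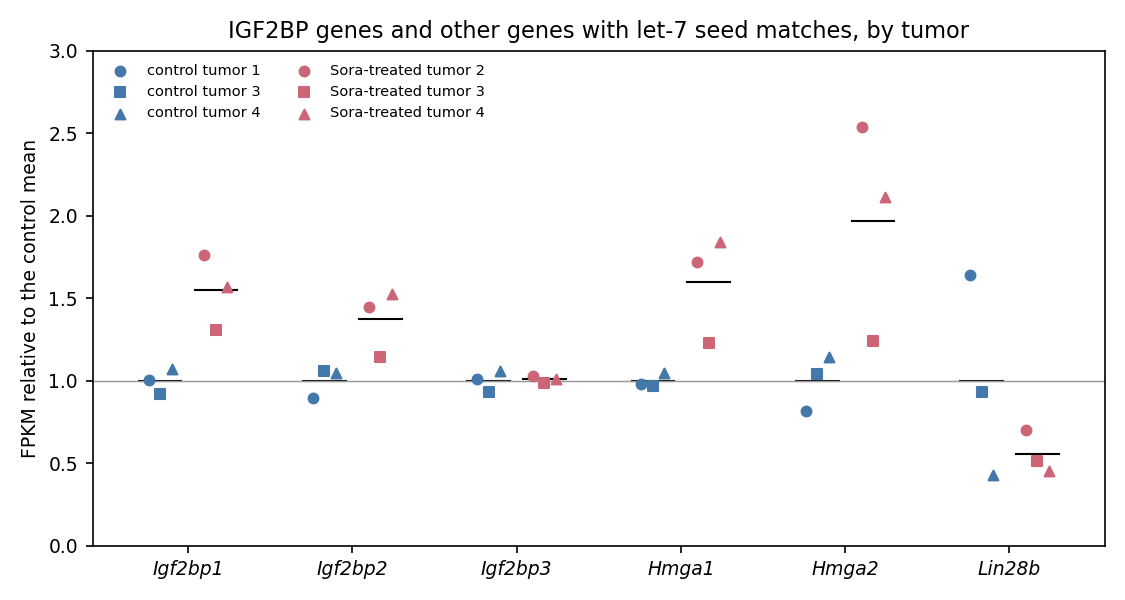
FPKM of the Igf2bp genes, Hmga1, Hmga2, and Lin28b in each tumor, divided by the mean of the 3 control tumors of the gene, with a black line at each group mean. The Sora-treated tumors lie above all control tumors for Igf2bp1, Igf2bp2, Hmga1, and Hmga2, are level with them for Igf2bp3, and overlap them at a lower mean for Lin28b (0.0314 against 0.0564 FPKM), and Sora-treated tumor 3 is the lowest of the treated tumors for the 4 genes that separate.

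Afp encodes alpha-fetoprotein, the main serum protein of the fetus and the fetal relative of albumin. It lies at chr5:90490714-90508907 (GRCm38.p6), 14.1 kb from the end of Alb, and the adult gene Alb comes first on the same strand. Afp was measured at 323, 457, and 483 FPKM in control tumors and 407, 385, and 392 FPKM in Sora-treated tumors. The Sora-treated tumors lay together inside the range of the controls, among which control tumor 1 was the lowest. The log2 fold change was -0.09 with a 95% interval of -0.39 to 0.22 (edgeR adjusted p = 0.815), and it turned to 0.02 without control tumor 4.

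Alb was measured at 1321, 1663, and 1680.1 FPKM in control tumors and 974, 1198, and 1003 FPKM in Sora-treated tumors. All Sora-treated tumors were below all control tumors, and Alb was down-regulated with a log2 fold change of -0.55 ± 0.12 (SE; edgeR adjusted p = 0.041). The call held in 2 of the 6 fits that each left out 1 tumor, which lacked control tumor 1 (edgeR adjusted p = 0.0359) or Sora-treated tumor 3 (0.0217). In the other 4 fits the edgeR adjusted p was 0.0935 (control tumor 3 left out), 0.125 (control tumor 4), 0.181 (Sora-treated tumor 2), and 0.175 (Sora-treated tumor 4). The ratio of Afp to Alb was 0.244, 0.275, and 0.288 in control tumors and 0.418, 0.322, and 0.391 in Sora-treated tumors. Every Sora-treated ratio was above every control ratio, by 0.48 on the log2 scale (two-sided exact permutation test, p = 0.1, the smallest possible).

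The other relatives in the albumin cluster did not pass the test. Afm, with 9 to 35 reads per tumor, had a log2 fold change of -0.36 (edgeR adjusted p = 0.776). Gc, the vitamin D binding protein, had 10.1, 10.5, and 10.7 FPKM in control tumors and 9.04, 9.30, and 11.8 FPKM in Sora-treated tumors, which overlapped (log2 fold change -0.04, edgeR adjusted p = 0.904).

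**Figure D4:**
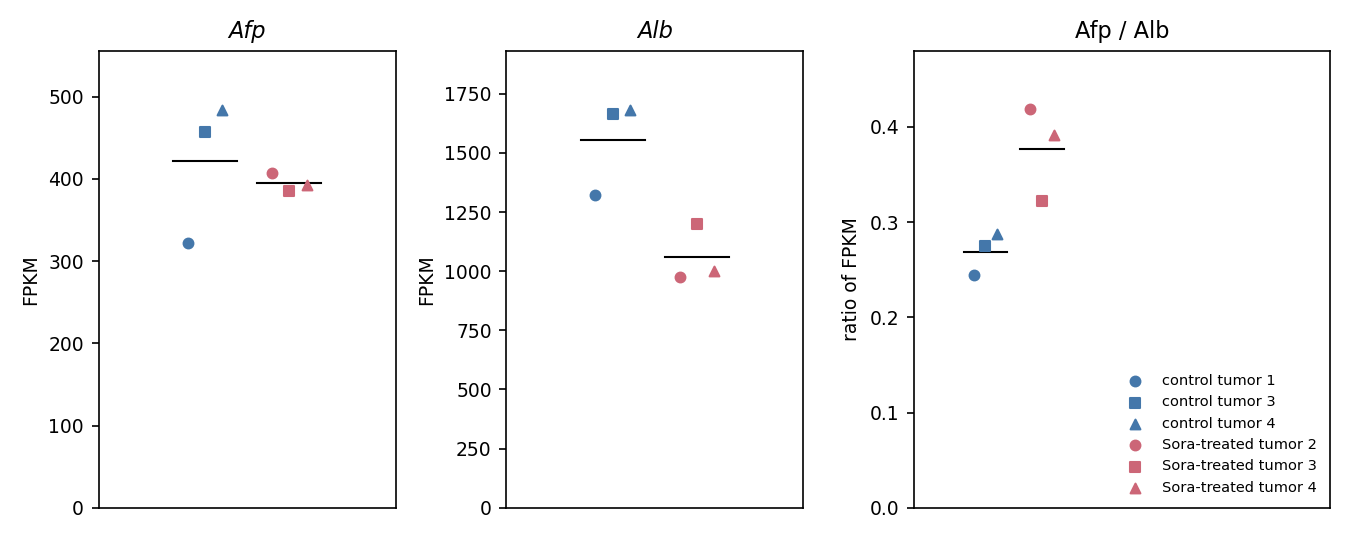
FPKM of Afp and of Alb and their ratio in each tumor, with all axes starting at 0, control tumors in blue, Sora-treated tumors in red, and a black line at each group mean. The Afp values of the groups overlap, the Alb values of Sora-treated tumors (974 to 1198 FPKM) lie below all controls (1321 to 1680.1 FPKM), and the ratio is higher in every Sora-treated tumor.

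The promoters of these neighboring genes are printed because Alb differed between the groups and Afp was not called. The 250 bases before each annotated start are from RefSeq (GRCm38.p6, plus strand), with these motifs in capitals: GTTAAT, a half-site of the HNF1 liver factor, CCAAT or its complement ATTGG, and TATAAA.
Alb, chr5:90460620-90460869: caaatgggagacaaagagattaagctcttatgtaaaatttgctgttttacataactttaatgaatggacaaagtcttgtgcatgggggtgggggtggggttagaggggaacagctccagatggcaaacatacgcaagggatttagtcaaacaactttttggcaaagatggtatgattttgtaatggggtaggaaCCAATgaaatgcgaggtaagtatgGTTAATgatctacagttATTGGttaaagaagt
Afp, chr5:90490464-90490713: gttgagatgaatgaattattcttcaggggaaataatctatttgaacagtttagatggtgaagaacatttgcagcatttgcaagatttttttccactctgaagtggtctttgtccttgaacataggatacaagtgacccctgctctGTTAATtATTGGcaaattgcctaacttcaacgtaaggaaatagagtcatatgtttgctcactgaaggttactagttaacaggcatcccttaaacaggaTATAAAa
Counted from the annotated start, GTTAAT began at -32 in Alb and at -105 in Afp, and it lay within a few bases of ATTGG in Afp. Searched on both strands over 300 bases around the start, GTTAAT was present in 7.1% of 32851 mouse promoters, CCAAT in 37.4%, and TATAAA in 13.6%. In these windows the capitals do not overlap each other, and a match describes the letters alone.

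The list of known regulators of Afp held 14 tested genes, of which 1 was called higher and 0 lower (median log2 fold change -0.03). The called gene was Hnf4a, a nuclear receptor that drives hepatocyte genes, at 15.8, 18.6, and 16.8 FPKM in control tumors and 32.0, 24.0, and 32.3 FPKM in Sora-treated tumors. The groups did not overlap (log2 fold change 0.80 ± 0.12 SE, edgeR adjusted p = 0.013), and the call was lost when Sora-treated tumor 4 (edgeR adjusted p = 0.0816) or control tumor 4 (0.051) was left out. Zhx2, which represses Afp and H19 in the liver after birth, was measured at 6.21, 5.82, and 5.71 FPKM in control tumors and 4.69, 4.76, and 4.70 FPKM in Sora-treated tumors. The Zhx2 values did not overlap, but the difference did not pass the test (log2 fold change -0.31 ± 0.08 SE, edgeR adjusted p = 0.0589). DESeq2 on all 6 tumors called Zhx2 lower (adjusted p = 0.0411), the one call among 17 alternative settings, whose edgeR, DESeq2, or limma adjusted p reached 0.568. Trp53 and Cebpb, the most abundant of the list, had log2 fold changes of -0.01 and 0.26 (edgeR adjusted p = 0.977 and 0.164).

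Gpc3 encodes glypican-3, a heparan sulfate proteoglycan anchored to the cell surface that modulates WNT and hedgehog signaling. Its gene spans chrX:52272426-52613974. It was measured at 12.8, 13.9, and 18.1 FPKM in control tumors and 13.3, 13.6, and 12.9 FPKM in Sora-treated tumors. The Sora-treated tumors were close together and within the range of the controls, where control tumor 4 was high. The log2 fold change was -0.16 with a 95% interval of -0.42 to 0.11 (edgeR adjusted p = 0.56). It was -0.0011 without control tumor 4 and -0.27 without control tumor 1.

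Among 12 tested glypicans and glypican partners, 2 were called lower and none higher, 11 had a log2 fold change below 0, and the median was -0.26. Notum, a secreted enzyme that inactivates WNT proteins, fell from 13.3, 17.6, and 15.4 FPKM in control tumors to 6.60, 10.9, and 6.47 FPKM in Sora-treated tumors (log2 fold change -0.95 ± 0.18 SE, edgeR adjusted p = 0.023). Gpc6, another glypican, fell from 0.635, 0.566, and 0.514 FPKM to 0.403, 0.411, and 0.321 FPKM (log2 fold change -0.59 ± 0.12 SE, edgeR adjusted p = 0.0304). For both genes the groups did not overlap. Gpc1 and Cd81, the most abundant of the list, were not called, with log2 fold changes of -0.26 and -0.12 (edgeR adjusted p = 0.234 and 0.604). Gpc1 was called in 1 of 17 alternative settings, with edgeR, DESeq2, or limma adjusted p from 0.0331 to 0.751. Glypicans are also made by stromal cells, and the fibroblast markers of these tumors are given at the end with those of other cell types.

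H19 and Igf2 are neighbors at the distal end of chromosome 7, 72.6 kb apart (H19 at chr7:142575530-142578146, Igf2 at chr7:142650768-142666816). H19 is a noncoding RNA, and Igf2 encodes a fetal growth factor that acts through the IGF1 receptor and the insulin receptor. H19 was measured at 10.3, 16.96, and 10.8 FPKM in control tumors and 18.5, 17.2, and 12.8 FPKM in Sora-treated tumors. Control tumor 3 lay among the Sora-treated tumors and the groups overlapped. The log2 fold change of 0.35 ± 0.19 (SE) did not pass the test (edgeR adjusted p = 0.393). Without control tumor 3 it was 0.64 and passed (edgeR adjusted p = 0.0476), the one call among 17 alternative settings, whose edgeR, DESeq2, or limma adjusted p reached 0.941. In the other fits that left out 1 tumor, it ranged from 0.21 (control tumor 1 left out) to 0.48 (Sora-treated tumor 4 left out). H19 was among the most variable genes, with a spread within groups at percentile 98.2 of 5179 genes of like abundance.

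Igf2 was measured at 5.28, 5.28, and 7.34 FPKM in control tumors and 5.63, 6.00, and 5.97 FPKM in Sora-treated tumors. All Sora-treated tumors lay within the range of the controls, with a log2 fold change of -0.01 and a 95% interval of -0.29 to 0.26 (edgeR adjusted p = 0.976). The ratio of Igf2 to H19 was 0.515, 0.315, and 0.684 in control tumors and 0.308, 0.352, and 0.471 in Sora-treated tumors. The ratios overlapped (log2 difference -0.37, two-sided exact permutation test, p = 0.4). In all 6 tumors H19 exceeded Igf2 in FPKM. The Igf2 gene overlaps an antisense gene, Igf2os, and the use of strand in counting is not given in the sources used here, so reads of the pair may be mixed. The same limit holds for Igf2bp3, and so for its ratio to Igf2bp1, since it overlaps the protein-coding gene Malsu1 on the opposite strand, and for Gpc3, which overlaps A630012P03Rik. Afp, H19, Meg3, and Igf2bp1 overlap genes on the opposite strand that the tables used here do not list. Cdkn1c, an imprinted growth inhibitor farther along the same chromosome, had a log2 fold change of -0.20 with a 95% interval from -1.07 to 0.67.

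Dlk1 and Meg3 form a similar pair on chromosome 12, 77.7 kb apart (Dlk1 at chr12:109452485-109463336, Meg3 at chr12:109540996-109571729). Dlk1 encodes a membrane protein related to the NOTCH ligands and marks hepatoblasts, the fetal precursors of hepatocytes. It was nearly silent in the tumors, with 21, 7, and 31 reads in control tumors and 17, 41, and 9 reads in Sora-treated tumors. The counts scattered without order between the groups, and the log2 fold change of 0.24 had a 95% interval of -1.11 to 1.58 (edgeR adjusted p = 0.886). It turned to -0.15 without control tumor 3 and to -0.50 without Sora-treated tumor 3.

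Meg3, a noncoding RNA, was measured at 1.93, 1.60, and 2.49 FPKM in control tumors and 1.86, 2.21, and 1.16 FPKM in Sora-treated tumors. The groups overlapped, with Sora-treated tumor 4 the lowest (log2 fold change -0.20 ± 0.20 SE, edgeR adjusted p = 0.681), and the log2 fold change was 0.01 without that tumor. Rian, the next noncoding RNA of the maternal copy, was measured at 6.18, 5.46, and 7.41 FPKM in control tumors and 5.38, 6.39, and 3.97 FPKM in Sora-treated tumors. Rian had its lowest value in Sora-treated tumor 4, as did Meg3, and its highest in control tumor 4 (log2 fold change -0.27, edgeR adjusted p = 0.423). Mirg, the farthest of these noncoding RNAs, had 12 to 33 reads per tumor and a log2 fold change of -0.64 (edgeR adjusted p = 0.483). Dio3, at the far end of the cluster, had a log2 fold change of 0.23 (edgeR adjusted p = 0.786), and Rtl1 did not reach the filter.

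The ratio of Meg3 to Dlk1, with 0.1 FPKM added to each, was 8.58, 11.9, and 9.45 in control tumors and 9.25, 6.56, and 8.18 in Sora-treated tumors. These ratios overlapped (log2 difference -0.32, two-sided exact permutation test, p = 0.2), and the added constant is of the size of Dlk1 itself. In every tumor Meg3 exceeded Dlk1 in FPKM.

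Among 12 tested genes of DLK and NOTCH signaling, 1 was called higher and 0 lower (median log2 fold change 0.05). Jag1, a NOTCH ligand, rose from 17.8, 17.3, and 20.1 FPKM in control tumors to 28.2, 21.9, and 28.7 FPKM in Sora-treated tumors (log2 fold change 0.53 ± 0.11 SE, edgeR adjusted p = 0.0332). Hes1, a target of NOTCH signaling, had a log2 fold change of -0.01 (edgeR adjusted p = 0.986).

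Peg3 encodes a zinc finger protein made from the paternal copy, and its gene lies at chr7:6703892-6730462, far from Igf2 on the same chromosome. It was measured at 0.551, 0.538, and 0.678 FPKM in control tumors and 0.499, 0.655, and 0.493 FPKM in Sora-treated tumors, from 178 to 282 reads. The groups overlapped (log2 fold change -0.09 ± 0.18 SE, edgeR adjusted p = 0.839), and the sign turned without control tumor 4. Its neighbors Usp29 and Zim1 did not reach the filter.

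Beyond the members, 16 imprinted genes listed as paternally expressed were tested, of which 0 were called higher and 1 lower, with a median log2 fold change of -0.03. The parental labels come from the lists, and which copy was used in these tumors was not measured. Slc38a4, an amino acid transporter of the liver and placenta, fell from 6.24, 5.36, and 5.40 FPKM to 4.17, 4.23, and 4.36 FPKM (log2 fold change -0.40 ± 0.09 SE, edgeR adjusted p = 0.0423). Of 18 maternally expressed genes, 1 was called higher and 0 lower, with a median of -0.04. Osbpl5, a lipid transfer protein gene of the chromosome 7 cluster that is imprinted in the placenta, rose from 7.03, 6.74, and 7.51 FPKM to 10.1, 8.90, and 9.19 FPKM (log2 fold change 0.42 ± 0.08 SE, edgeR adjusted p = 0.0247). Neither gene's groups overlapped. The most abundant of the maternally expressed genes, Dcn, which fibroblasts make in quantity, and Gnas, each had a log2 fold change of 0.03 (edgeR adjusted p = 0.912 and 0.898). Mcts2, second in level to Slc38a4 among the paternally expressed genes, had 0.05 (edgeR adjusted p = 0.948).

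The IGF axis, the ligands, receptors, and binding proteins through which IGF2 acts, had 3 of 17 tested genes called higher and 0 lower (median log2 fold change -0.03). Igfbp1, a binding protein secreted by hepatocytes, rose from 516, 710.4, and 651 FPKM in control tumors to 906, 1008, and 1096 FPKM in Sora-treated tumors (log2 fold change 0.69 ± 0.13 SE, edgeR adjusted p = 0.0233). Igfbp3, the main carrier of IGFs in serum, rose from 231, 263, and 245 FPKM to 437, 358, and 481 FPKM (log2 fold change 0.80 ± 0.12 SE, edgeR adjusted p = 0.013). Stc1, a secreted inhibitor of the protease that cleaves IGF binding proteins, rose from 30.7, 31.1, and 39.3 FPKM to 63.0, 39.9, and 57.3 FPKM (log2 fold change 0.68 ± 0.16 SE, edgeR adjusted p = 0.0442). For all 3 genes every Sora-treated tumor was above every control tumor. Igfbp4, at 550.3 FPKM on average in control tumors, had a log2 fold change of 0.31 that did not pass the test (edgeR adjusted p = 0.146). DESeq2 on all 6 tumors called it (adjusted p = 0.0206), the one call among 17 alternative settings, whose edgeR, DESeq2, or limma adjusted p reached 0.894. All 3 binding proteins were far more abundant than the ligand Igf2 in FPKM.

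**Figure D5:**
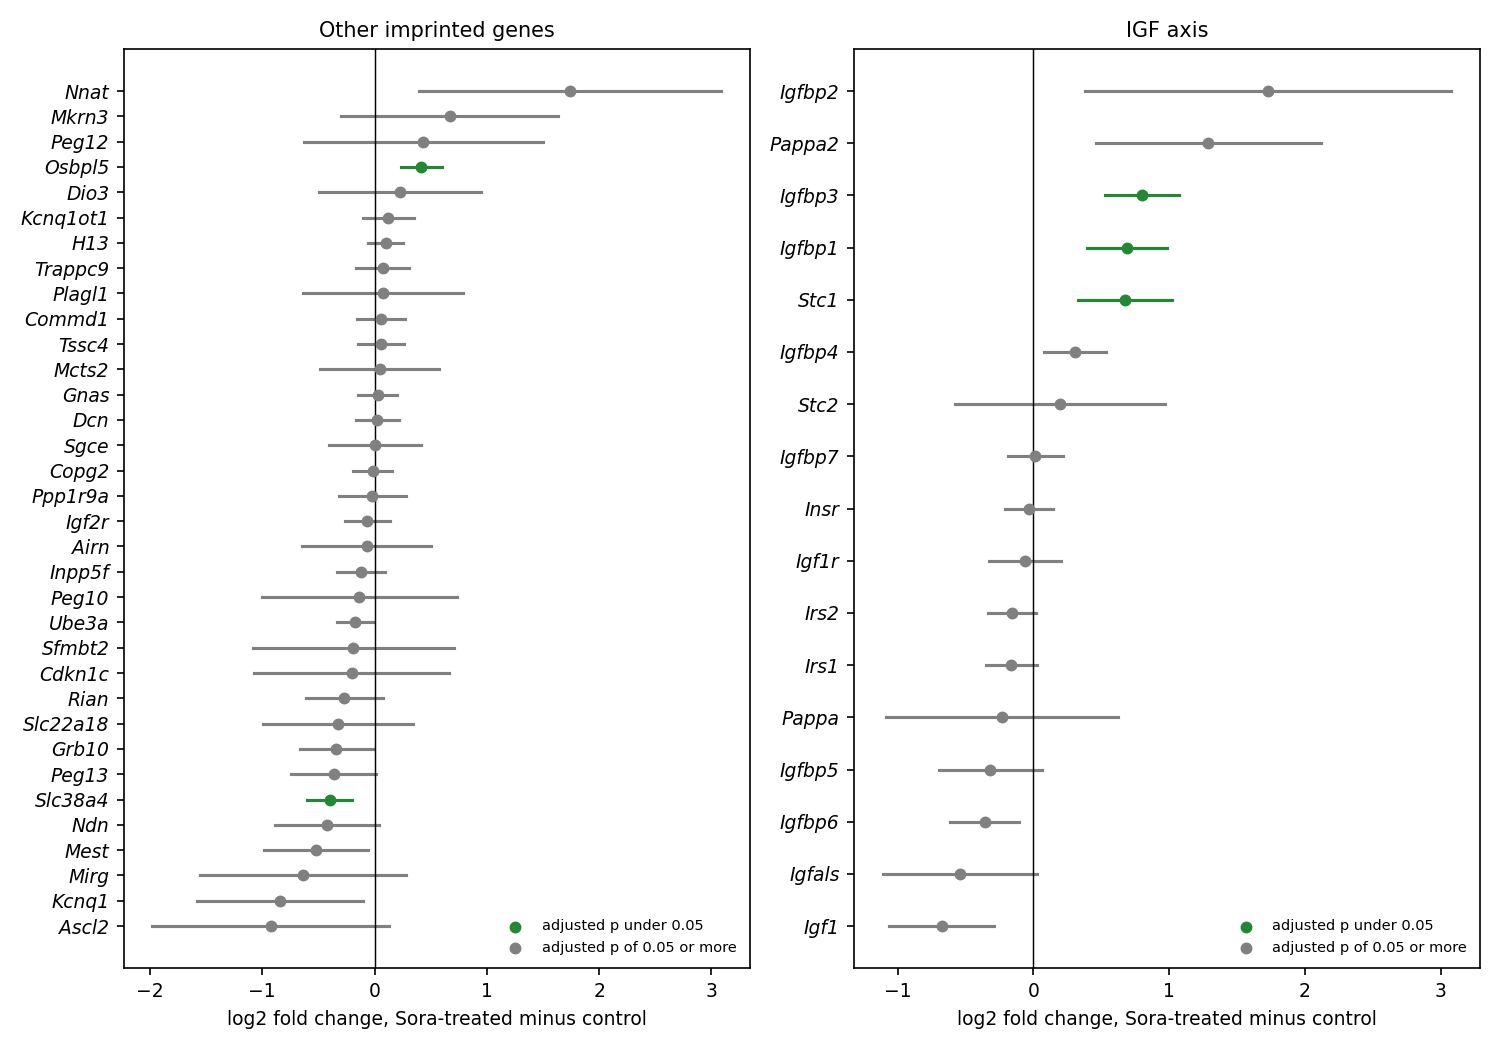
Log2 fold change, Sora-treated minus control, with 95% intervals from edgeR, for 34 other imprinted genes (left) and the 17 tested genes of the IGF axis (right), with green for an adjusted p under 0.05. Among the imprinted genes Slc38a4 and Osbpl5 are called, in opposite directions, and Igfbp3, Igfbp1, and Stc1 are called on the higher side of the IGF axis.

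Among 15 tested markers of liver progenitors and liver tumors, 1 was called higher and 0 lower, 12 had a log2 fold change above 0, and the median was 0.18. Sox9, a transcription factor of biliary and progenitor cells, rose from 18.4, 18.0, and 21.1 FPKM to 29.8, 26.2, and 38.3 FPKM (log2 fold change 0.73 ± 0.14 SE, edgeR adjusted p = 0.0211). The 2 most abundant, Pkm and Spp1, had log2 fold changes of 0.25 and 0.27 and were not called (edgeR adjusted p = 0.236 and 0.194). The 12 genes called in the 9 lists around the members were also called by DESeq2, and none of them was called by edgeR without Sora-treated tumor 4, where their adjusted p ranged from 0.0663 to 0.195. That fit called 4 genes higher and 1 lower of all genes. Of the 6 fits that each left out 1 tumor, edgeR called Igfbp3 in 5, Hnf4a in 4, Igfbp1 in 3, Alb, Notum, and Sox9 in 2 each, Hmga1, Gpc6, Jag1, Osbpl5, and Stc1 in 1 each, and Slc38a4 in 0, where its adjusted p was 0.0535 to 0.156.

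Markers of the hepatoma cells were present in all tumors, at a summed 2899 to 3492 FPKM in control tumors and 2937 to 3206 FPKM in Sora-treated tumors for the 10 genes listed. Of 9 tested, 2 were called higher (Apoa1 and Hnf4a) and 2 lower (Ttr and Alb), with a median log2 fold change of 0.30. Of the 6 fits that left out 1 tumor, Ttr was called in 6 and Apoa1 in 1, the fit without Sora-treated tumor 3. The Apoa1 call (edgeR adjusted p = 0.047) was also lost with DESeq2 (adjusted p = 0.0627) and limma voom (0.0806). Fibroblast markers summed to 1091 to 1206 FPKM in control tumors and 669 to 968 FPKM in Sora-treated tumors, without overlap, and all 8 had a log2 fold change below 0 (median -0.16), although none was called. Leukocyte markers summed to 1324 to 1398 and 1088 to 1436 FPKM, with 9 of 10 below 0 (median -0.32) and none called. In CPM, 6 of the 10 leukocyte markers (Ptprc, Cd3e, Cd8a, Cd68, Csf1r, and Itgax) and 3 of the 8 fibroblast markers were lower in every Sora-treated tumor than in every control tumor, against 11.6% of all genes tested. Keratinocyte markers summed to 468, 124, and 145 FPKM in control tumors 1, 3, and 4 and to 272 to 419 FPKM in Sora-treated tumors. All 6 had a log2 fold change above 0 (median 0.45), and none was called. Endothelial markers (6 tested, median -0.10), skeletal muscle markers (8 tested, median 0.19), and adipocyte markers (4 tested, median 0.65) had no called gene. None of the markers was at 0 in all tumors, and the part of these cell types in the differences above was not tested.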

How the data were processed

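RNA from 3 control and 3 Sora-treated tumors was sequenced on the BGISEQ-500 platform. The authors deposited raw read counts per gene (5 tumors in the table used here) and FPKM (6 tumors), which are those counts scaled to gene length and to the library total. Their methods name Bowtie2 and GRCm38, whereas the submitters' processing notes list fastp, HISAT2, HTSeq, R 3.2.0, DESeq2, and GRCm39, so which build and aligner gave the tables is unsure. Use of strand and the annotation are not given in the sources used here.

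For Sora-treated tumor 4, whole-number counts were recovered by combining its FPKM with the gene lengths that the other tumors imply. By the same method, every gene that could be recovered in each of the 5 known tumors equaled its deposited count. In Sora-treated tumor 4, 342 genes with 512 reads could not be recovered and were left at 0. Each tumor had 31073830 counted reads or more, so that counting error matters for scarce genes and the spread between tumors for abundant ones. The test was the quasi-likelihood F test of edgeR 4.0.16 (R 4.3.3) with TMM scaling, without the robust option, on genes that reached 10 counts in 3 or more tumors. Adjusted p-values (Benjamini-Hochberg, over all genes tested) were called under 0.05. Alternatives used DESeq2 1.42.0 and limma 3.58.1. Ratios of FPKM used 0.1 added to each value and an exact permutation test over 20 labelings. The scripts were tested on simulated data.

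The members and the lists were chosen with earlier results of these data known. Named beside the members are the called genes and the 2 most abundant genes of each surrounding list, the neighbors of members, and Igf2bp2 and Lin28a. Hmga2, Zhx2, Arid3a, Tut4, and Tut7 fall outside this rule and were chosen after their values were seen. Of the lists, Snrpn, Magel2, Zrsr1, Ins2, and Sall4 were not analysed here. Gene coordinates and let-7 and promoter sequences are from RefSeq for GRCm38.p6, matched by symbol for 24819 genes and all 10 members, and untranslated regions are from GENCODE for GRCm38. Promoters of H19 and Igf2bp1 are not shown.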

Additional observations from a re-analysis of the deposited data

How the results depend on the processing

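No member was called lower under any of the 17 alternatives in which it was tested, and Igf2bp1 kept a positive log2 fold change in all 17. Peg3 and Lin28b were tested in 15 and Dlk1 in 14, since they did not reach the FPKM filter, nor Dlk1 the filter of 10 counts in every tumor. The number of members called higher was 1 as reported, 0 with a replicate block (Igf2bp1 log2 fold change 0.53, edgeR adjusted p = 0.0662), and 0 with limma on log2(FPKM + 1) with and without a filter (adjusted p = 0.0527 and 0.198) and on log2(FPKM + 0.1) (adjusted p = 0.0828). At an unadjusted p under 0.05, each of these settings had 1 member higher and 0 lower. Of the 12305 to 26167 genes tested, 870 to 1604 were higher and 677 to 1649 lower. Without control tumor 1, edgeR had 1 member higher and 2 lower (Afp and Gpc3), beside 1294 and 1058 of 16305 genes. Without control tumor 4 it had 1 and 1 (Lin28b lower), beside 1274 and 1256 of 16318. Members higher were 2, with 0 lower, without control tumor 3, without Sora-treated tumor 4, with no filter, and with DESeq2 on the 5 deposited columns. There, 956 to 1653 genes were higher. By adjusted p, 0 to 2 members were called higher when 1 tumor was left out, the second call being H19 without control tumor 3. Tumors with the same number did not deviate together (correlations of -0.033 and -0.074 for the shared numbers 3 and 4). With 1 pair per number, this cannot show whether the tumors belong together, and the labels do not say what the numbers mean. Control tumor 1 and Sora-treated tumor 2 have no partner, so the block compares only the tumors numbered 3 and 4. Leaving out 1 tumor gave log2 fold changes from -0.50 to 0.64 for Dlk1, -0.0058 to 0.064 for Igf2bp3, -0.26 to 0.019 for Afp, -0.11 to 0.16 for Igf2, -0.23 to 0.017 for Peg3, -1.19 to -0.30 for Lin28b, -0.27 to -0.0011 for Gpc3, and -0.40 to 0.011 for Meg3. Meg3 was also at 0.0086 with DESeq2 on the 5 deposited count columns, an alternative chosen after seeing the data. The cause of these changes of sign was not tested. Over all genes, 321 higher and 222 lower calls became 619 and 576 with DESeq2, 570 and 577 with no filter, 80 and 45 with the block, 136 and 62 with limma on filtered log2(FPKM + 1), 21 and 17 on log2(FPKM + 0.1), and 0 and 0 with limma on unfiltered values, where 1604 and 1649 genes had an unadjusted p under 0.05. They ranged from 4 to 574 and from 1 to 571 when 1 tumor was left out. For Dlk1 and Lin28b, with at most 41 reads per tumor, depth limits what can be seen.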

Other observations

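For the 3 members most abundant in FPKM, though not in CPM, the genes whose levels followed theirs most closely over the 6 tumors were ranked. The measure was the root mean square distance of log2(CPM + 1), centered per gene, among 10076 genes with a mean of at least 10 CPM. Nearest to Afp were Spc24 (0.073), Chaf1b (0.092), and Ifi27l2a (0.094). Spc24 encodes a kinetochore protein and Chaf1b a chromatin assembly factor. Nearest to Gpc3 were Kif11 (0.039), Kif20a (0.040), and Fancd2 (0.041), of which the first and second encode mitotic kinesins and the last a DNA repair protein. The nearest genes to H19 were farther away, with Actn3 at 0.147, Unc13a at 0.172, and Ccl4 at 0.183. This distance grows with the spread of the gene itself. The SD of log2(CPM + 1) within groups was 0.342 for H19, 0.245 for Afp, and 0.184 for Gpc3. These distances are a description over 6 tumors, the nearest of 10076 genes are close by selection, and none was tested.

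The spread within groups was at percentile 98.3 of like genes for Meg3, 97.0 for Afp, 90.2 for Igf2, and 87.8 for Gpc3, so that 6 of the 7 members above 1 FPKM were more variable between tumors of one group than most genes of their abundance, with Igf2bp3 the exception. Nnat, an imprinted gene with 1 to 22 reads per tumor, was chosen after its values were seen: it had 9, 8, and 1 reads in control tumors and 22, 18, and 20 reads in Sora-treated tumors, without overlap, and its difference did not pass the test (edgeR adjusted p = 0.161). Igf1 was likewise chosen after its values were seen, at 6.01, 6.74, and 5.002 FPKM in control tumors and 3.47, 4.87, and 2.74 FPKM in Sora-treated tumors, without overlap (log2 fold change -0.68, edgeR adjusted p = 0.0628). It was called in 4 of 17 alternative settings, among them DESeq2 (adjusted p = 0.00136) and edgeR without Sora-treated tumor 3 (0.00731), and the adjusted p over all of them reached 0.351.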
